A study of Mus musculus with 6 samples.

Results

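Intergenic ATAC-seq peaks over 100 kb from the nearest transcription start site (TSS) were compared between small-intestinal organoids grown from young and from aged mice. A peak was a member when the deposited annotation classed it as intergenic and placed it over 100 kb, in either direction, from the nearest annotated TSS. Of 156733 consensus peaks, 5342 (3.41%) were members, and 4326 of these held enough counts to be tested. ATAC-seq uses the Tn5 transposase to insert adapters into open chromatin, so a peak's count follows how open that stretch of DNA was. The young group held 3 libraries of organoids from C57BL/6JRj mice aged 2 to 3 months and the aged group 3 libraries from mice of the same strain aged 20 to 22 months. All cultures were untreated epithelial organoids kept for 3 to 5 weeks, and each age had 1 library at passage 4 (replicate 1), 1 at passage 3 (replicate 2) and 1 at passage 2 (replicate 3). In the titles each young library has an aged partner of the same number, culture code and passage. Whether 3 different animals stand behind each age is not stated, so the p-values reflect only how far these libraries spread, which may be technical.

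Open chromatin far from any gene start is where distal enhancers lie. Enhancers bind transcription factors and contact promoters by looping of the DNA, often past nearer genes, so the nearest gene is a label for a place and not a known target. In the intestinal epithelium such elements bind HNF4, CDX2 and GATA proteins, and AP-1 after stress or growth signals. Some peaks far from an annotated start instead mark promoters of transcripts that the annotation does not hold, such as long non-coding RNAs (lncRNAs).

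The members were checked against a second gene table, RefSeq on GRCm38.p6. By RefSeq, 1084 members (20.3%) lay inside a gene span, but only 195 (3.65%) lay inside a protein-coding one. A further 840 lay up to 10 kb from a RefSeq span, 2535 over 10 and up to 100 kb away, and 883 (16.5%) over 100 kb from every RefSeq gene. The median member was 152.5 kb from the nearest RefSeq protein-coding gene and 23.6 kb from the nearest RefSeq gene of any kind. Far more members lay over 100 kb from every coding span (3774, 70.6%) than over 100 kb from every RefSeq gene. These distances are to gene spans and the label is by distance to a TSS, so they do not check the label itself. For the 79 members that overlapped the window of a RefSeq start (below), the label does not hold by RefSeq. For the others it was not checked.

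In 79 members the peak overlapped the 300-base window (250 bases before to 50 after the start) of a RefSeq gene, 79 genes in all. The windows that overlap a member, which can run past it, are the only sequences read here. The 4 shown are promoters the deposited annotation missed: 3 of the 4 that changed with age, and the most open one. Sequences are RefSeq's on GRCm38.p6, given 5′ to 3′ on the gene's strand. Creb5 encodes a CREB-family transcription factor. Its window (chr6:53287053-53287352, plus strand) lay inside the widest member, 1944 bp, and the capitals mark its 31 CpG dinucleotides.
Creb5: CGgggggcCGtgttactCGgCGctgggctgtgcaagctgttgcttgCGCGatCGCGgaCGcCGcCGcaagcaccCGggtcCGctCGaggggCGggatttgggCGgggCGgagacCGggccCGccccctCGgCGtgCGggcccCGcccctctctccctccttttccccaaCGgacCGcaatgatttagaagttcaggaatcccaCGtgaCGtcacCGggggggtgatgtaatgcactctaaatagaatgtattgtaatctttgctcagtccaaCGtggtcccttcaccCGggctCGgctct
The window of Gm36441, an lncRNA gene on chromosome 12 (chr12:25209552-25209851, minus strand), held 5 CpG dinucleotides, in capitals. Its member ended at 25209750, so part of this window lies outside the peak.
Gm36441: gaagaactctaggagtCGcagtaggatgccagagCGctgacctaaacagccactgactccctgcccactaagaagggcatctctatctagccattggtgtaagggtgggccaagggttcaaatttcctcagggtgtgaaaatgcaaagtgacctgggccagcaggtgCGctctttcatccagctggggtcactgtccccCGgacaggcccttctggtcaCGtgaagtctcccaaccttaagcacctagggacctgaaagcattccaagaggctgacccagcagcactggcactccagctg
In the windows of 2 lncRNA genes on chromosome 10, 4930556N09Rik (chr10:97035518-97035817, plus strand) and 4930543I11Rik (chr10:67785493-67785792, plus strand), capitals mark matches to the AP-1 letters TGANTCA and the GATA letters AGATAA on either strand. The GATA match in 4930556N09Rik is on the other strand and so reads in reverse complement. The 4930556N09Rik window also runs past the end of its member, at 97035794.
4930556N09Rik: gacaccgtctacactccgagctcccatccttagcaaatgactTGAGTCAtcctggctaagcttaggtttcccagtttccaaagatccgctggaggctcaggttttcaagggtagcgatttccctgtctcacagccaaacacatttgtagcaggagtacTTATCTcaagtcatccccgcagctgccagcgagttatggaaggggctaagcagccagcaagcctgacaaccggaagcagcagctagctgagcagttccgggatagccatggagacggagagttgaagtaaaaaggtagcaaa
4930543I11Rik: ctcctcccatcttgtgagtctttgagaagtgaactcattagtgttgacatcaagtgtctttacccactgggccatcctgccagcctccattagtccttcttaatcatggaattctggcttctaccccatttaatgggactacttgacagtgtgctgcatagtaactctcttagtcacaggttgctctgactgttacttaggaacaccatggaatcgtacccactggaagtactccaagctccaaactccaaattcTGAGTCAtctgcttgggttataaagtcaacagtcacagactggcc

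The Creb5 window was 64.7% G and C, against a median of 50.3% over the 91 RefSeq windows at members and 52.7% over all 32851 RefSeq windows of this incomplete set. CpG-rich windows are typical of housekeeping and developmental promoters. AP-1 letters stood in 17 of the 91 windows (18.7%) and in 7.81% of all RefSeq windows, and GATA letters in 22.0% against 11.2%. The HNF4 letters CAAAGTCCA stood in 2 of the 91 and in 0.475% of all windows, the CDX letters TTTATNG in 8.79% against 10.9%, the FOXA letters TGTTTAC in 3.30% against 3.65% and the KLF letters GGGNGTGG in 15.4% against 17.6%. Both strands were searched, the 6 motifs do not contain one another, and a match is a description of letters and not of binding. The 91 windows all overlapped a peak, while the full set was taken whether or not a window held one. Windows at other peaks were not compared, so these shares cannot be read as particular to members.

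Among these promoter windows 69 members were tested and 4 were called at an adjusted p under 0.05 by edgeR's quasi-likelihood test, which called 1.13% of all 132055 tested peaks. Values are CPM, a library's count scaled to its size, and each log2 fold change is the aged level over the young one. The Creb5 member measured 5.61, 6.20 and 5.33 CPM in young replicates 1 to 3 and 4.00, 3.51 and 3.49 CPM in aged replicates 1 to 3. The groups did not overlap, and the member fell by 0.65 on the log2 scale (SE 0.17, edgeR adjusted p = 0.0474). This call was lost on leaving out any 1 of the 6 libraries, with adjusted p between 0.0501 (without young replicate 3) and 0.264 (without aged replicate 3). At the start of 4930556N09Rik the member rose from 0.681 ± 0.335 to 1.89 ± 0.561 CPM (SD over n = 3 libraries; log2 1.35, SE 0.32, edgeR adjusted p = 0.0235). Without young replicate 1 or 3, or aged replicate 2 or 3, its adjusted p was 0.078, 0.183, 0.062 or 0.223. At 4930543I11Rik the member rose from 11.6 ± 1.49 to 16.2 ± 0.49 CPM (SD over n = 3 libraries; log2 0.47, SE 0.12, edgeR adjusted p = 0.0466), with the 3 aged libraries (15.6, 16.5 and 16.4 CPM) above the 3 young ones (10.2, 11.3 and 13.2 CPM). That call too was lost without young replicate 1 (adjusted p = 0.175), young replicate 2 (0.103) or aged replicates 1, 2 or 3 (0.112, 0.149 and 0.235). Only the fourth, at LOC108167368 in a stretch of chromosome 12 taken to be multi-copy, kept its call without each library (log2 −2.79, edgeR adjusted p = 9.74e-07). Copy number was not measured here, and reads there may come from near-identical copies. The most open of these promoters did not pass the test: the Gm36441 member, near Id2, measured 35.8 ± 7.05 CPM in young and 35.1 ± 3.15 CPM in aged (log2 −0.01).

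Library depth ran from 7278161 counts in young replicate 1 to 26093521 in aged replicate 3, and the members held between 145080 and 493549 of these counts per library. Young replicate 1, the shallowest, had 201 members at 0 and a median of 8 counts per member, against 8 to 28 members at 0 and medians of 22 to 30 counts in the other libraries. Promoter peaks of epithelial markers were open in all libraries: 7 of 8 genes had one, at 2.68 to 73.3 CPM, with sums of 290 to 333 CPM in young and 315 to 330 CPM in aged. Of 6 immune markers 2 had a promoter peak, both under 0.5 CPM on average, with sums of 0.561 to 1.48 CPM in young and 0.455 to 1.09 CPM in aged, and the defining gene Ptprc had none. Of 5 stromal markers 3 had a peak (sums of 19.0 to 23.7 CPM in young and 21.9 to 26.8 CPM in aged, mostly Pdgfra), and Col1a2 and Acta2 had none. Endothelial Kdr (2.69 to 3.71 CPM in young, 1.86 to 2.22 CPM in aged, edgeR adjusted p = 0.187) was the peak of 1 of 3 endothelial markers, with none at Pecam1 or Cdh5, and 2 of 4 neural and glial markers had one (sums of 6.74 to 9.61 and 9.66 to 10.1 CPM). The part of other cells in the results was not tested.

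Members were weak and narrow peaks. Their median level was 1.13 CPM and their median width 231 bp, against 1.50 CPM and 251 bp for intergenic peaks up to 100 kb from a TSS and 1.63 CPM and 270 bp for all peaks. Per kb of peak, the medians were 4.95, 5.89 and 6.08 CPM. The 3400 intron peaks over 100 kb from a TSS were like them, at 1.08 CPM and 228 bp. Distances of members to the nearest TSS had a median of 151.5 kb, with quartiles at 120.2 and 201.1 kb and a maximum of 1095 kb. At the threshold the set had no natural edge: 738 intergenic peaks lay at 100 to 110 kb and 871 at 90 to 100 kb. A member just inside, 100006 bp from Irx4, measured 11.6 CPM with a log2 fold change of 0.07, and a peak just outside, 99988 bp from Gm9959, measured 0.991 CPM with −0.53.

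The nearest annotated TSS belonged to a protein-coding gene for 2469 members (46.2%), to a lincRNA for 598 and to a processed pseudogene for 534. Small RNA genes were nearest for many of the rest, 401 snRNA, 337 miRNA and 329 snoRNA genes. Their share was higher than among all intergenic peaks, 7.51% against 4.07% for snRNA and 6.16% against 3.26% for snoRNA. Members were spread unevenly over chromosomes: they made up 20.6% of the intergenic peaks of chromosome 8 (597 members) and 14.9 to 15.3% of those of chromosomes 10, 12 and 13, but 3.13 to 3.45% of those of chromosomes 1, 3, 5, 11 and X. The annotation itself differed between chromosomes. For every 100 protein-coding genes named as nearest, the annotation named 66.2 processed pseudogenes and TEC genes (unverified transcripts) on chromosome 1 and 63.0 on chromosome 3, but 9.46 on chromosome 8. On chromosome 11, which also had few members, it named 21.95. Across 20 chromosomes this number ran against the members' share (Pearson's r = −0.75, Spearman's rho = −0.67, as a description over chromosomes of 1 annotation). By RefSeq spans, the share of intergenic peaks over 100 kb from any gene was 3.31% on chromosome 1, 4.44% on X and 4.77% on chromosome 8.

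**Figure D1:**
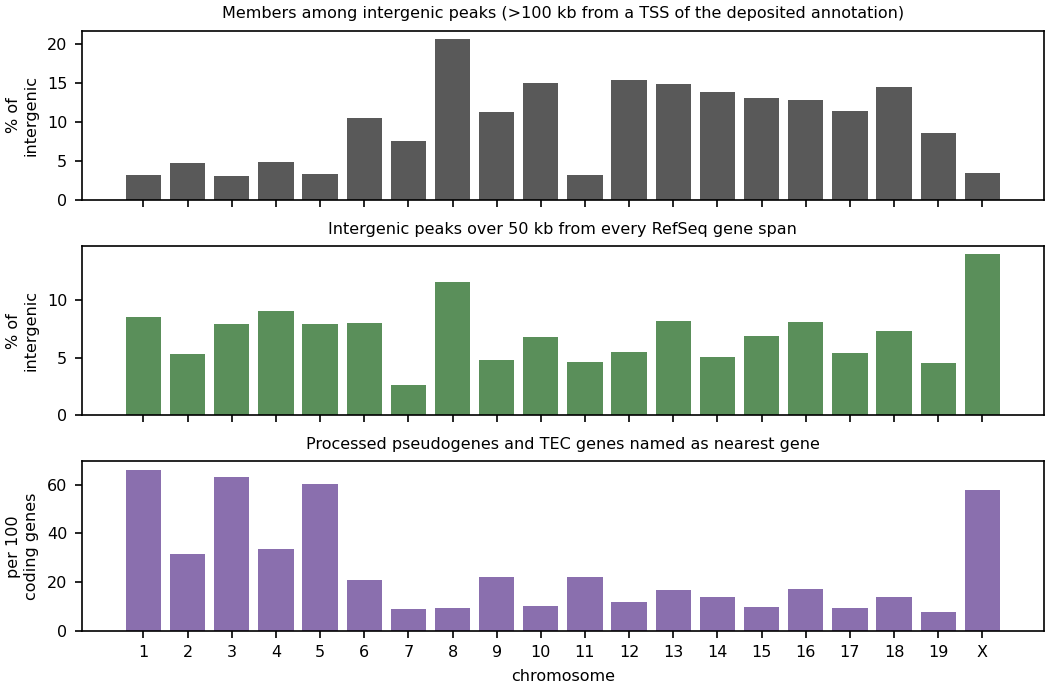
Members as a percentage of each chromosome's intergenic peaks (top), intergenic peaks over 50 kb from every RefSeq gene span as a percentage (middle), and processed pseudogenes plus TEC genes per 100 protein-coding genes among the genes named as nearest (bottom). Chromosomes 1, 3, 5 and X have few members, many pseudogene and TEC entries, and no low bar in the middle panel. Chromosome 11 has few members too (3.26%), but only 21.95 such entries per 100 coding genes and 4.64% in the middle panel.

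Between ages, 97 of the 4326 tested members were called (2.24%), 39 higher and 58 lower in aged organoids. Over all tested peaks 1.13% were called, 0.619% higher and 0.510% lower, while among members 0.902% were higher and 1.34% lower. At least a 2-fold change was measured in 23 that rose and 36 that fell, and the median size of a called change was 1.18 on the log2 scale. The 3 young and 3 aged libraries did not overlap for 95 of the 97, and 96 moved the same way in all 3 same-numbered pairs. Over all called peaks it was 1472 and 1483 of 1491, close to the members' shares. An unadjusted p under 0.05 was found for 604 of 4326 members and 9.71% of all peaks. Of intergenic peaks up to 100 kb from a TSS, 456 of 43211 (1.06%) were called, 283 higher and 173 lower, and of intron peaks over 100 kb, 43 of 2716 (1.58%), 13 higher and 30 lower. The differences between these shares were not tested, since neighbouring peaks are not independent.

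With the replicate number as a block, 198 members were called (84 higher and 114 lower, 4.58%), against 2.67% of all peaks. Without young replicate 1 the count was 63 (1.38% of members, 0.82% of all peaks), and without aged replicate 3 it was 54 (1.19% and 0.607%). The members' share was above that of all peaks in each of the 12 alternative fits. Peaks of like level also differed: members at 2 to 5 CPM were called in 3.06% and all peaks at that level in 1.80%, and at 5 to 10 CPM the shares were 4.59% and 1.79%. Of members over 20 CPM only 1 of 186 was called (0.538%), against 0.407% of all peaks. The stretch of chromosome 12 taken to be multi-copy (18 to 25 Mb, copy number not measured) held 4 of the calls. Outside it 93 of 4309 remained called (38 higher and 55 lower).

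The share of calls grew with distance to the nearest TSS of the deposited annotation. Among intergenic peaks, calls lower in aged were 0.442% at up to 10 kb from a TSS, 0.344% at 10 to 50 kb, 0.520% at 50 to 100 kb, 1.15% at 100 to 200 kb and 1.91% (21 of 1097) over 200 kb. Calls higher in aged ran from 0.522% to 1.0% over the same bins, a smaller increase. The order up to 100 kb, 100 to 200 kb and over 200 kb, from fewest to most called, was found in the first fit and in each of the 12 alternative ones. Of the members over 100 kb from every RefSeq gene, 29 of 700 tested were called (4.14%, 12 higher and 17 lower). Among members inside RefSeq gene spans 23 of 908 were called (2.53%). Between these lay lower shares, 13 of 691 (1.88%) at up to 10 kb outside a span and 32 of 2027 (1.58%) at over 10 and up to 100 kb. By distance to RefSeq spans the share therefore did not grow steadily.

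**Figure D2:**
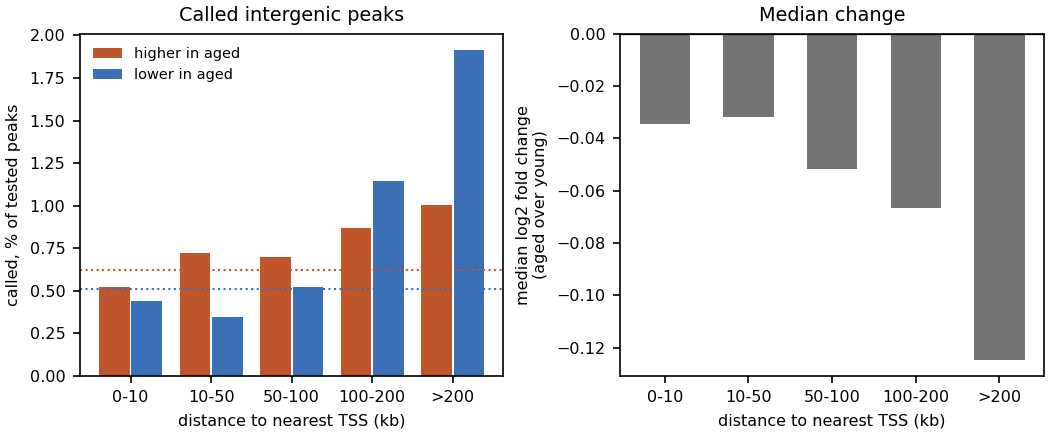
Left, percentage of tested intergenic peaks called higher or lower in aged organoids, by distance to the nearest TSS in kb; dotted lines give the percentages over all peaks. Right, the median log2 fold change (aged over young) in the same bins, from −0.03 nearest the TSS to −0.12 over 200 kb.

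Besides the calls, members as a whole held a slightly smaller part of the counts in aged organoids. They took 1.99%, 1.91% and 2.06% of the counts in young replicates 1 to 3 and 1.88%, 1.87% and 1.87% in aged replicates 1 to 3. All young libraries were above all aged ones, and aged was lower in 3 of 3 same-numbered pairs. The means were 1.99 ± 0.0784% and 1.87 ± 0.00922% (SD, n = 3), a difference of −0.114 percentage points with an exact permutation p of 0.1, two-sided, the smallest that 3 against 3 libraries allow. The exact sign-flip test over the 3 pairs gave p = 0.25, also its smallest. As a part of the counts in intergenic peaks alone, members took 7.71 ± 0.127% in young and 7.45 ± 0.0393% in aged (SD, n = 3).

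The median log2 fold change of tested members was −0.08, with quartiles at −0.29 and 0.13, and 2637 of 4326 (61.0%) were below 0. For all peaks the median was −0.01 (68616 of 132055 below 0), for intergenic peaks up to 100 kb −0.04 and for intron peaks over 100 kb −0.06. Within the pairs the members' median difference was −0.06 at replicate 1, −0.02 at replicate 2 and −0.10 at replicate 3. Young replicate 3 carried much of the shift: without that library the median was −0.04, and without young replicate 2, the young library with the lowest share, it was −0.11. A median shift of this size is far below the called changes.

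**Figure D3:**
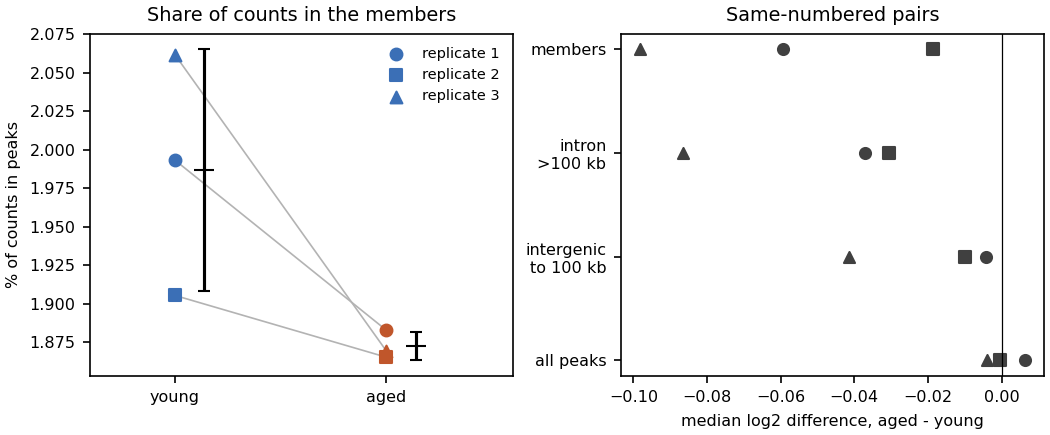
Left, percentage of each library's counts that lay in members, by age, with same-numbered libraries joined and the mean ± SD beside them; the axis does not start at 0. Right, the median log2 difference (aged minus young) in each same-numbered pair, for members, intron peaks over 100 kb, intergenic peaks up to 100 kb and all peaks; the 3 member values lie from −0.10 to −0.02.

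The 10 members with the smallest p among those that rose, 1 per 500 kb, spread over chromosomes 1, 8, 10, 13, 15, 16 and 17. The first, chr17:82827284-82828100, lay 241.2 kb from the lincRNA Gm29052, inside the RefSeq lncRNA gene Gm34265 and 387.2 kb from Pkdcc, which encodes a secreted tyrosine kinase. It measured 2.25, 3.56 and 2.64 CPM in the young and 7.77, 9.80 and 10.3 CPM in the aged libraries (log2 1.64, SE 0.18, edgeR adjusted p = 2.36e-07). Every aged library was over 2 times every young one. The next, chr8:127753017-127753915, lay 140.7 kb from Pard3, a scaffold of epithelial cell polarity. It measured 3.51, 3.48 and 3.38 CPM in young and 10.9, 8.55 and 9.01 CPM in aged (log2 1.46, SE 0.16, edgeR adjusted p = 4.69e-07). Young libraries hardly varied there.

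A member 1151 kb from Cited2, a partner of the coactivators CBP and p300, rose from 6.77 ± 0.912 to 12.5 ± 0.262 CPM (SD over n = 3 libraries; log2 0.92, edgeR adjusted p = 8.66e-05). One on chromosome 1, 102.5 kb from the pseudogene Gm20281 and 2071 kb from any RefSeq coding gene, rose from 6.71 ± 0.609 to 13.1 ± 0.435 CPM (log2 0.97, edgeR adjusted p = 2.86e-05). These were among the more open called members and both nearly doubled. Near Lrig3, a leucine-rich repeat membrane protein gene, a member rose from 0.771 ± 0.184 to 3.21 ± 1.05 CPM (log2 1.94, edgeR adjusted p = 3.55e-05). Near Plk2, a polo-like kinase gene, one rose from 0.507 ± 0.300 to 1.94 ± 0.88 CPM (log2 2.17, edgeR adjusted p = 0.000785). Those were the largest rises of the 10, at low levels. The remaining ones lay near Tars, Efcab1, Ifng and Snx18, with log2 rises of 1.14, 1.69, 1.78 and 1.18.

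Among the 10 that fell, the one with the smallest p lay near Gm3993 in the stretch of chromosome 12 taken to be multi-copy (log2 −1.75, edgeR adjusted p = 1.91e-08). One near 2410018L13Rik (log2 −2.45) lay there too. Counts there may be split between copies. Outside that stretch, chr15:93974840-93975031, 429.3 kb from the TSS of the secreted metalloprotease gene Adamts20, measured 6.60, 3.48 and 4.22 CPM in young and 1.09, 0.647 and 0.776 CPM in aged (log2 −2.40, SE 0.26, edgeR adjusted p = 2.63e-07). The lowest young library was over 3 times the highest aged one. The member chr14:81255471-81255729 lay 913.1 kb from its nearest TSS and 1232 kb from Olfm4, a secreted glycoprotein gene that is the nearest coding one. It measured 1.26, 1.10 and 2.53 CPM in young and 0.318, 0.231 and 0.194 CPM in aged (log2 −2.73, SE 0.41, edgeR adjusted p = 7.01e-05). This was the largest fall of the 10 and left the site close to the lowest levels counted.

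On chromosome 6, a member 470.7 kb from Tfec, a transcription factor gene of the MITF family, fell from 2.11, 2.31 and 2.27 CPM in young to 0.409, 0.508 and 0.543 CPM in aged (log2 −2.19, edgeR adjusted p = 9.56e-06). A member near Ccser1 fell from 2.04 ± 0.665 to 0.452 ± 0.0984 CPM (log2 −2.05, edgeR adjusted p = 0.000203). Both sites were under 3 CPM in every library. Near Gpc5, a cell-surface glypican gene, 742.4 kb away, a member fell from 15.6, 7.91 and 12.4 CPM in young to 3.64, 3.97 and 5.47 CPM in aged (log2 −1.38, edgeR adjusted p = 0.000218). Near Zfat, a zinc-finger transcription factor gene, the most open of the 20 went from 25.3, 21.7 and 27.8 CPM in young to 14.5, 14.6 and 16.4 CPM in aged (log2 −0.71, SE 0.11, edgeR adjusted p = 0.000129). The other 2, near Sod1 and Kctd12, fell by 1.24 and 1.83 on the log2 scale. All 20 kept their call in each fit that left out 1 library, but after thinning all libraries to the depth of the shallowest only 6 kept it, 11 lost it and 3 were too weak to test.

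**Figure D4:**
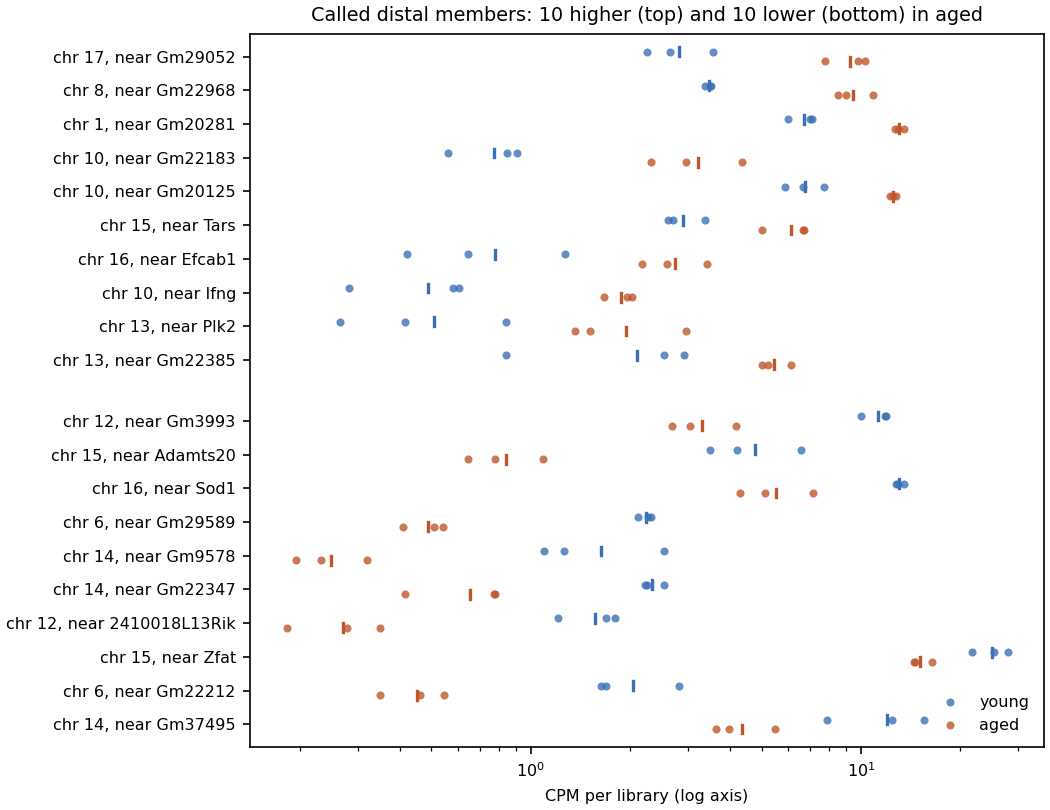
CPM per library (log axis) of the 10 called members with the smallest p among those higher (top) and lower (bottom) in aged organoids, each labelled by chromosome and nearest gene. Points are libraries and ticks the group means. Young and aged points do not overlap in any of the 20, which were picked by p, nor in 98.7% of all called peaks.

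Members came in runs. Joined where they lay within 50 kb, they formed 1386 stretches: 630 of these held 1 member, and 300 held 5 or more, with 3504 members between them. Calls fell in 79 stretches, and 13 stretches held 2 or more calls (31 calls in all). In none of the 13 did calls go in both directions. Of those 31 calls, 16 were kept in every fit that left out 1 library, and 2 of the 21 that could still be tested were kept after thinning to the shallowest library.

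A stretch of 97.0 kb on chromosome 8 near Arglu1, which encodes an arginine- and glutamate-rich nuclear protein, held 11 members, 9 of them tested. All 9 fold changes were below 0, from −0.40 to −1.23, and 4 passed the test. Summed over the stretch, the members measured 23.2, 25.2 and 27.0 CPM in young and 12.5 to 15.5 CPM in aged. The stretch was picked for its calls and the sum includes them, so the sum is a description and no further support. The member chr8:8851404-8851848, 161.1 kb from the Arglu1 TSS, fell from 8.37 ± 0.443 to 4.54 ± 0.582 CPM (SD over n = 3 libraries; log2 −0.89, SE 0.16, edgeR adjusted p = 0.000794) and kept its call without any 1 library. The other 3, at log2 −1.10, −1.23 and −0.83, lost theirs without aged replicate 3 (adjusted p = 0.0632, 0.148 and 0.126). The first and the last of them also lost it without young replicate 3 (0.11 and 0.102), the first and the second without aged replicate 1 (0.0612 and 0.0903), and the second without young replicate 1 (0.102).

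On chromosome 16 a stretch of 62.5 kb was annotated by the Sod1 TSS, but by RefSeq all 8 members lay within the span of Tiam1, which encodes an exchange factor that activates the GTPase Rac. All 6 tested members were below 0 (log2 −0.97 to −1.73) and 4 were called lower. The sum, which includes the called members, fell from 22.3, 22.0 and 23.0 CPM in young to 10.8, 9.29 and 7.92 CPM in aged. The member chr16:90091169-90091664 gave most of it, with 13.5, 12.8 and 12.9 CPM in young and 7.18, 5.13 and 4.31 CPM in aged (log2 −1.24, SE 0.16, edgeR adjusted p = 4.00e-06). A weaker one beside it, chr16:90073637-90073894, fell from 2.89 ± 0.0727 to 0.884 ± 0.297 CPM (SD over n = 3 libraries; log2 −1.73, edgeR adjusted p = 7.98e-05). These 2 kept their call without each library. The member at log2 −1.34 lost it without aged replicate 1 (adjusted p = 0.0674) or young replicate 3 (0.05), and that at log2 −1.65 without aged replicate 2 (0.0914) or young replicate 1 (0.0689).

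The 185.2 kb between Ifng, which encodes interferon gamma, and the kinase gene Dyrk2 on chromosome 10 held 17 members, 14 tested. Of the 14 tested, 9 fold changes were above 0 and 5 below, and 3 members were called higher. The member chr10:118564177-118564782, 123.4 kb from the Ifng TSS and 7.65 kb from the lncRNA gene Ifngas1, went from 0.281, 0.605 and 0.580 CPM in young to 1.95, 1.66 and 2.02 CPM in aged (log2 1.78, SE 0.31, edgeR adjusted p = 0.000645). It was among the weakest sites in the young libraries and kept its call without each library. The 2 others, nearer Dyrk2, rose by log2 1.64 (lost without aged replicate 3, adjusted p = 0.0713) and 1.20 (lost without aged replicate 1 or 3, or young replicate 1 or 2, adjusted p = 0.133, 0.17, 0.113 or 0.0597). Summed over the stretch there was no such difference (82.8, 73.7 and 81.8 CPM in young, 86.2, 82.7 and 80.6 CPM in aged), and the most open member there, at 40.7 CPM on average, was not called.

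Near Tars, the gene of threonyl-tRNA synthetase, 10 members spanned 93.6 kb of chromosome 15. The 2 called ones lay side by side and rose from 2.89 ± 0.417 to 6.14 ± 0.988 CPM (SD over n = 3 libraries; log2 1.14, edgeR adjusted p = 0.000255) and from 4.11 ± 1.34 to 7.44 ± 0.192 CPM (log2 0.97, edgeR adjusted p = 0.00151). Both kept their call without each library, and 8 of 9 tested members were above 0. On the same chromosome 5 members near Zfat were all below 0 (log2 −0.71 to −1.10), and both called ones kept their call. Near Kctd12 on chromosome 14, an auxiliary subunit gene of GABA-B receptors, 2 of 3 were called lower, at log2 −1.83 and −2.32, and kept it too. Other stretches with 2 calls lay near St3gal1, Adamts20, Eef2kmt, Fign, Ythdf3 and Skor2, all with calls lower in aged, and near Sall3, with calls higher. In these 7 stretches 6 of the 14 calls were kept without each library, and none of those near St3gal1.

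**Figure D5:**
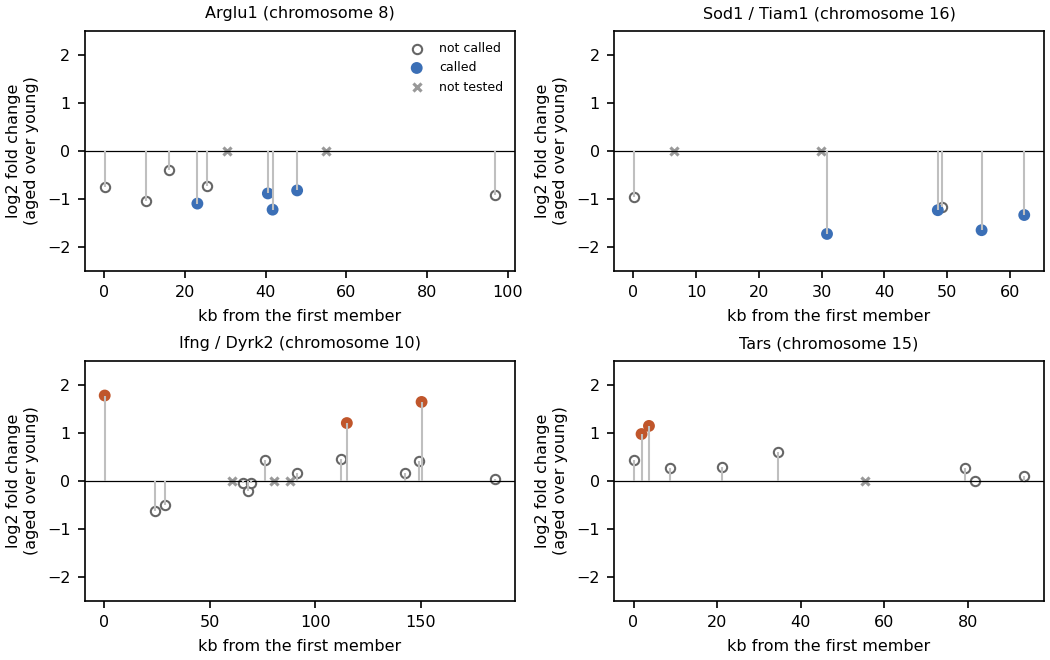
Log2 fold change (aged over young) of each member along 4 stretches, against distance in kb from the stretch's first member. Filled points passed the test (blue lower, orange higher in aged), open points did not, and crosses at 0 are members too weak to test; near Arglu1 and Tiam1 every tested member lies below 0.

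The stretch with the most, 55 members over 334.3 kb of chromosome 12, was named for Rad51b, a gene of homologous recombination repair, and 54 of its members lay inside the RefSeq span of that gene. Next came 46 members near Cited2, 42 between Tle3 and Rplp1, 40 near Zmiz1, and 39 each near Irf2bp2 and between Uaca and Tle3. Of the 207 tested members of these 6 stretches none passed the edgeR test or DESeq2, 14 had an unadjusted p under 0.05, and 2 were called higher with the replicate block. Over all peaks 1.13% were called, 9.71% had an unadjusted p under 0.05 and 2.67% were called with the block. Over all 4326 tested members 97 were called, 604 had an unadjusted p under 0.05 and 198 were called with the block. The counts in these 6 stretches were below each of these shares, a difference that was not tested. Median log2 fold changes of the 6 stretches ran from −0.15 to −0.01. The Irf2bp2 stretch was the most open, with sums of 677 to 796 CPM in young and 687 to 755 CPM in aged, so the groups overlapped.

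The 10 most open members (1 per 500 kb) held no call by edgeR, with or without the block, or by DESeq2, and none had an unadjusted p under 0.05. Only 0.407% of all peaks over 20 CPM were called, so the absence of calls among 10 is not particular to them. The highest, chr8:126735521-126737254, lay 142.4 kb from Irf2bp2, which encodes a transcriptional corepressor, and measured 106, 96.5 and 109 CPM in young and 101, 96.3 and 103 CPM in aged (log2 −0.05). Next were a member near the forkhead factor gene Foxp1 (77.1 CPM), one annotated to Hif1a that lay 1.07 kb from Prkch, a protein kinase C gene (73.2 CPM), and those with Lacc1 (71.6 CPM), Myt1l (70.9 CPM) and Rplp1 (69.9 CPM) as nearest RefSeq protein-coding gene, 203.9, 236.2 and 104.0 kb away. The other 4 lay near Gata6, Arhgap12, Rreb1 and Trib1, at 62.5 to 65.5 CPM. Their fold changes were within 0.15 of 0 on the log2 scale in all 10. In Rplp1, the one furthest from 0, young libraries gave 78.9, 67.4 and 74.8 CPM and aged ones 63.1, 63.8 and 71.1 CPM, which overlap (log2 −0.15, edgeR adjusted p = 0.569).

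A list of 61 genes known for distant enhancers, for intestinal identity or for signalling was set beside the members by nearest RefSeq coding gene. For 27 of them at least 1 member was found, 282 in all, with 231 tested, and 3 of these (1.30%, against 1.13% of all peaks) were called, 2 higher and 1 lower. With the replicate block 5 were called, against 2.67% of all peaks, and with DESeq2 1, against 0.710% of all peaks. Their median log2 fold change was −0.05. Myc, the proliferation factor, had 38 members, followed by Zfhx3 (31), Id2 (29), the endoderm factor Gata6 (28), Maf (26), Sox9 (24), a factor of crypt progenitor and Paneth cells, Klf5 (21), Bmp2 (18) and Klf4 (17). None of the 195 tested members of these 9 genes was called by edgeR or DESeq2, and 24 had an unadjusted p under 0.05, against 9.71% of all peaks. With the replicate block 1, near Maf, was called lower (log2 −0.43, edgeR adjusted p = 0.0476). The smallest adjusted p among the Myc members was 0.345 (log2 −0.79 to 0.38 over 32 tested) and among the Sox9 members 0.584 (−0.86 to 0.40 over 17 tested).

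The called list member that fell lay 58.6 kb from Prox1, a homeobox factor of endocrine cells in the gut, inside the lncRNA gene Gm30446. It measured 1.96, 2.84 and 3.27 CPM in young and 0.909, 1.52 and 1.24 CPM in aged (log2 −1.20, SE 0.25, edgeR adjusted p = 0.00561). Without aged replicate 1 its adjusted p was 0.0556. The member near Hnf4g, which encodes a nuclear receptor of the enterocyte programme, 129.4 kb away, measured 1.68, 1.70 and 1.79 CPM in young and 3.96, 2.82 and 2.95 CPM in aged (log2 0.90, SE 0.22, edgeR adjusted p = 0.0312). All aged libraries were above all young ones, but the call was lost without any 1 of 5 libraries, with adjusted p of 0.25 without aged replicate 1, 0.0689 without aged replicate 3 and 0.0752, 0.0984 and 0.072 without young replicates 1, 2 and 3. A member 496.8 kb from Sox2, a pluripotency and foregut factor gene, rose from 1.50 ± 0.329 to 3.16 ± 0.856 CPM (SD over n = 3 libraries; log2 0.99, edgeR adjusted p = 0.0252), and lost its call without aged replicate 2 (0.213) or 3 (0.0605) or young replicate 1 (0.0922) or 2 (0.0665). Near Meis1 a member at log2 1.21 missed the threshold (edgeR adjusted p = 0.0526) and passed it with the replicate block (0.0208).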

How the data were processed

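ATAC-seq counts per consensus peak were deposited by the authors for 6 libraries, as raw featureCounts output per the file headers, not normalised, with a table that places the peaks on GRCm38 and names the nearest TSS of each. That table's score column, as deposited by the authors, was not used. The submitters' processing notes name, among other tools, BWA 0.7.17-r1188, MACS2 2.2.7.1 and featureCounts 2.0.1. The Tn5 shift and the treatment of duplicates are not given in the sources used here. Depth was 7278161 to 26093521 counts per library, with no molecular identifiers. The SDs and standard errors reflect the spread between these libraries, counting error included.

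The 2 ages were compared with edgeR 4.0.16 under R 4.3.3, using its quasi-likelihood test, TMM scaling and filterByExpr at a minimum count of 10, over all peaks, with Benjamini-Hochberg adjustment and calls at an adjusted p under 0.05. The code was tested on simulated data. CPM used TMM-scaled library sizes. The share of counts in members was compared by exact permutation. Standard errors are the fold change divided by the root of F. The pairs' log2 differences used CPM plus 0.5.

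Same-numbered libraries share a culture code and passage in the titles and were taken as pairs. The pairs entered the replicate block, the sign-flip test, the within-pair differences and the choice of named members. All other fits, the first one included, had no term for the pairs. The descriptions repeat the passages but give 1 culture code for all 6 libraries, so the pairing by culture rests on the titles. Deviations of same-numbered libraries from the group means correlated at r = 0.102, 0.196 and 0.208. Between young and aged libraries of different number r ran from −0.199 to 0.0089.

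Members, lists and tests were chosen with earlier results of these data known. Named members were the 10 with the smallest p in each direction that moved the same way in 3 pairs, the 10 most open (each 1 per 500 kb), the stretches with the most members or with 2 or more calls, and members near 61 listed genes. Distances to RefSeq genes are to the gene span, since that table gives no strand; the deposited distances are to a TSS. Sequences and motifs were read only in RefSeq promoter windows, as no genome was used here. The CTCF motif and base composition of other members were not analysed.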

Additional observations from a re-analysis of the deposited data

How the results depend on the processing

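The count of called members, 97 at first, was 198 with the replicate block, 53 with DESeq2 1.42.0 and 9 (2 higher and 7 lower, of 2589 tested) when all libraries were thinned to the depth of the shallowest. Leaving out 1 library gave 54 to 91. With other distance limits it was 172 over 50 kb and 32 over 200 kb, and, in an alternative chosen after seeing the data, 29 over 100 kb from every RefSeq gene span; the sets differ in size. Other scaling factors gave 95 and 98, and no filter on low counts gave 113. Calls lower in aged outnumbered those higher in each of these. Of the 97 calls, 37 were kept in all 6 fits that left out a library, and 7 in all 12 alternative fits. The median log2 fold change of members was −0.12 over 200 kb and −0.0425 to −0.111 without 1 library, below 0 in every setting run. The difference in the share of counts stayed below 0 in all settings, at −0.0768 to −0.155 points without 1 library. The cause of each movement was not tested. Each of the 97 kept its call with the block.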
